A study of Mus musculus with 6 samples.

Results

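The formyl peptide receptor genes of the mouse were followed through RNA sequencing of the vomeronasal organ. The family was taken as a named list, and the 6 genes described here (Fpr1, Fpr2, Fpr-rs3, Fpr-rs4, Fpr-rs6 and Fpr-rs7) are among 35450 genes quantified. All 6 passed the filter on low counts that left 16679 genes for testing. The libraries came from 6 littermate mice at postnatal day 60, 3 wild type (Cnpy1+/+) and 3 homozygous knockouts (Cnpy1-/-), with 2 males and 1 female in each genotype. Both vomeronasal organs of a mouse went into 1 poly(A)-selected library, after removal of the outer bone. Cnpy1 encodes an endoplasmic reticulum protein of the Canopy family, and the labels name no promoter, Cre or other allele. The female was replicate 2 among the wild types and replicate 3 among the knockouts.

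Formyl peptide receptors are G protein-coupled receptors. Fpr1 and Fpr2 are known from neutrophils, monocytes and macrophages, where they detect peptides carrying N-formylmethionine, as bacteria and mitochondria make them, and steer these cells towards the source. Rodents carry further members that are known as vomeronasal receptors, each expressed in a scattered subset of sensory neurons. Fpr-rs3, Fpr-rs4, Fpr-rs6 and Fpr-rs7 are known from the apical neurons, which use the G protein subunit gene Gnai2. Below, Fpr1 and Fpr2 are called the immune-type members and the 4 Fpr-rs genes the vomeronasal members. This division is background and was not derived from these libraries, which hold whole tissue.

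All 6 genes lie on chromosome 17 of GRCm38 within 2748.4 kb, in 2 groups. Fpr1 (ENSMUSG00000045551.7, chr17:17876471-17883940, minus strand) is 3.9 kb from Fpr2 (ENSMUSG00000052270.7, chr17:17887824-17893952, plus strand). Fpr-rs4 (ENSMUSG00000048062.4, chr17:18021733-18022704, plus strand) lies 127.8 kb beyond Fpr2. After a gap of 2090.5 kb follow Fpr-rs7 (ENSMUSG00000071276.1, chr17:20113210-20114226), Fpr-rs6 (ENSMUSG00000071275.1, chr17:20182078-20183097) and Fpr-rs3 (ENSMUSG00000060701.1, chr17:20623846-20624877), all on the minus strand. The 4 Fpr-rs members are annotated as a single coding exon each, with no untranslated part, so reads outside the coding sequence were not counted for them. The main coding parts of Fpr1 and Fpr2 also lie within 1 exon, after a short noncoding first exon.

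The members differ in how alike their coding sequences are, which sets how well short reads tell them apart. The first 60 coding bases of each member are shown from the start codon, taken from GENCODE M21 transcripts (GRCm38), with capitals where the base differs from Fpr2 at the same position.
Fpr2: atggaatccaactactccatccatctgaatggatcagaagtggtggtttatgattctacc
Fpr1: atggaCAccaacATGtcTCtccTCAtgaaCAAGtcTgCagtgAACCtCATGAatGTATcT
Fpr-rs3: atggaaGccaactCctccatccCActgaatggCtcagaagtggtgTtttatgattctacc
Fpr-rs4: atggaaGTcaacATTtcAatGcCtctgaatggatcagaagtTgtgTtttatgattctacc
Fpr-rs6: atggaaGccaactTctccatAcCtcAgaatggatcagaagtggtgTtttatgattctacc
Fpr-rs7: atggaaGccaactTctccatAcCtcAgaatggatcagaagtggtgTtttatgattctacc
In this stretch Fpr1 differed from Fpr2 at 30 positions, Fpr-rs4 at 10, and Fpr-rs3, Fpr-rs6 and Fpr-rs7 at 6 each. Fpr-rs6 and Fpr-rs7 were identical to each other there.

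Over the whole coding sequence Fpr1 stood furthest from the others, with 66.3% to 69.8% identical bases. Fpr2 shared 72.5% to 75.3% with the vomeronasal members. Fpr-rs3 and Fpr-rs4 shared 86.1%. Fpr-rs6 and Fpr-rs7 were the closest pair at 96.9%, with 31 differing bases among 1014 aligned and a longest identical run of 127 bases. The 100 coding bases in which they differed most, positions 480 to 579 from the start codon, are shown with the 11 differing bases in capitals.
Fpr-rs6 (chr17:20182519-20182618, minus strand): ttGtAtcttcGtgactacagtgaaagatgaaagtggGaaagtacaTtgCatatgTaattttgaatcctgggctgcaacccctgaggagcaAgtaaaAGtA
Fpr-rs7 (chr17:20113648-20113747, minus strand): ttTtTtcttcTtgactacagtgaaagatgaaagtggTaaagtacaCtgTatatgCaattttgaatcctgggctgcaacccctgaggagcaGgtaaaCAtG
As a measure of how reads can be assigned, the share of each member's 31-base words found in no other quantified gene was counted, with the other genes read on both strands. It was 98.5% for Fpr1, 95.9% for Fpr-rs3 and 95.6% for Fpr-rs4. Fpr-rs6 and Fpr-rs7 had 56.1% and 57.1%, and 42.7% of the words of Fpr-rs6 also occur in Fpr-rs7, so the division of reads between this pair is uncertain. Fpr2 had 57.0%, with 37.6% of its words also found in Gm5966, an annotated pseudogene at chr17:17920269-17921312. Gm5966 was listed at 0 reads in all 6 libraries.

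**Figure D1:**
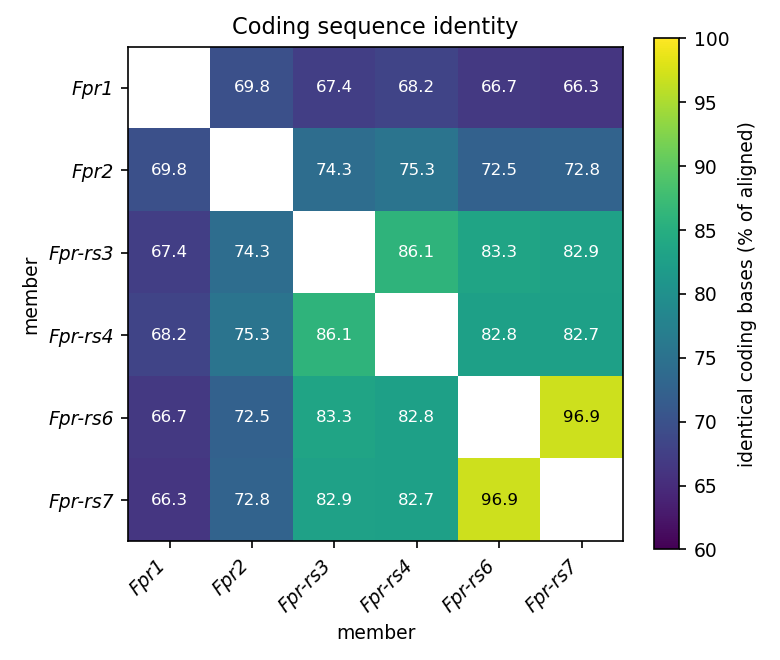
Percent of aligned coding bases that are identical for each pair of the 6 members, by global alignment of GENCODE M21 coding sequences. Fpr-rs6 and Fpr-rs7 share 96.9%, Fpr-rs3 and Fpr-rs4 86.1%, and Fpr1 at most 69.8% with any other member.

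The vomeronasal members also resembled each other just before the start codon. The 50 bases that precede it are shown from the RefSeq window of GRCm38.p6, which runs from 250 bases before to 50 after each annotated start and holds the start codon of these 4 members. Capitals mark bases that all 4 share without gaps.
Fpr-rs3 (chr17:20624878-20624927, minus strand): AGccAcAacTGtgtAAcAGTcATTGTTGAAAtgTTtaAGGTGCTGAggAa
Fpr-rs4 (chr17:18021683-18021732, plus strand): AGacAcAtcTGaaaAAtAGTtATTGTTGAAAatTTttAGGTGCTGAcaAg
Fpr-rs6 (chr17:20183098-20183147, minus strand): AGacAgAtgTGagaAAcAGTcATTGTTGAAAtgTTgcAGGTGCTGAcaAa
Fpr-rs7 (chr17:20114227-20114276, minus strand): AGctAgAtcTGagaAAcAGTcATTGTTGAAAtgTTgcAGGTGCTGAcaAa
Of the 50 positions, 33 were shared by all 4, and the longest shared run was the 10 bases ATTGTTGAAA. This run, picked after the sequences were seen and searched on both strands, occurred in 23 of 32851 windows of the same length, or 0.07001%, and in those of all 4 vomeronasal members. It did not occur in the windows of Fpr1 and Fpr2, whose annotated starts lie in a separate exon away from the start codon.

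The genotype labels were checked on Cnpy1, which stood at 280, 303 and 325 CPM in the wild types and 67.2, 77.6 and 76.3 CPM in the knockouts. CPM are estimated reads relative to library size, after scaling by TMM factors. Libraries held 60969508 to 71670766 estimated reads. Markers of mature vomeronasal neurons were abundant, with Omp at a mean of 1037 CPM and Trpc2 at 281 CPM over the 6 libraries. Of 16679 genes, 127 were called between genotypes at an adjusted p-value under 0.05 in the quasi-likelihood F test of edgeR, adjusted by Benjamini-Hochberg, or 0.761%, and 0.0779% were called higher in the knockout.

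Levels within the family were compared by TPM, the abundance relative to all transcripts after division by effective length, summed over the transcripts of a gene. Fpr-rs3 was the most abundant of the 6, at 9.41, 10.9 and 10.5 TPM in wild-type replicates 1 to 3 and 10.6, 9.14 and 11.9 TPM in knockout replicates 1 to 3. Among the members described, Fpr-rs6 followed at 2.53, 3.31 and 3.63 TPM in the wild types and 2.34, 2.92 and 4.32 TPM in the knockouts. The ranges of these 2 genes were separate in both genotypes, with the lowest mouse for Fpr-rs3 above the highest mouse for Fpr-rs6. Fpr-rs4 had 1.58, 1.64 and 1.79 TPM in the wild types and 1.98, 1.17 and 1.68 TPM in the knockouts. Fpr-rs7 had 0.636, 1.23 and 1.21 TPM in the wild types and 1.304, 0.894 and 1.202 TPM in the knockouts. Fpr-rs4 lay above Fpr-rs7 in each of the 6 mice, and their ranges over mice were separate in the wild types and overlapped in the knockouts.

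The immune-type members were the least abundant, although their ranges met those of the lowest vomeronasal member. Fpr2 stood at 0.738, 0.693 and 0.844 TPM in the wild types and 0.964, 0.946 and 1.34 TPM in the knockouts, overlapping Fpr-rs7 in both genotypes. Fpr1 stood at 0.441, 0.620 and 0.639 TPM in the wild types and 0.798, 0.849 and 0.865 TPM in the knockouts, below Fpr2 without overlap within each genotype. This order holds by TPM only, and the TPM of Fpr2 depends on a split between transcripts that rests on few reads. By CPM Fpr1 ranged from 0.408 to 0.524 and Fpr2 from 0.434 to 0.498 in the wild types. In the knockouts the ranges were 0.714 to 0.839 and 0.618 to 0.774 CPM, again with overlap. Together Fpr1 and Fpr2 made up 7.60% ± 0.433 (SD, n = 3) of the summed TPM of the 6 genes in wild type. Another annotated gene of the family, the pseudogene Fpr-rs5 (chr17:17990498-17991464), had 1 to 3 estimated reads per library and was not tested.

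**Figure D2:**
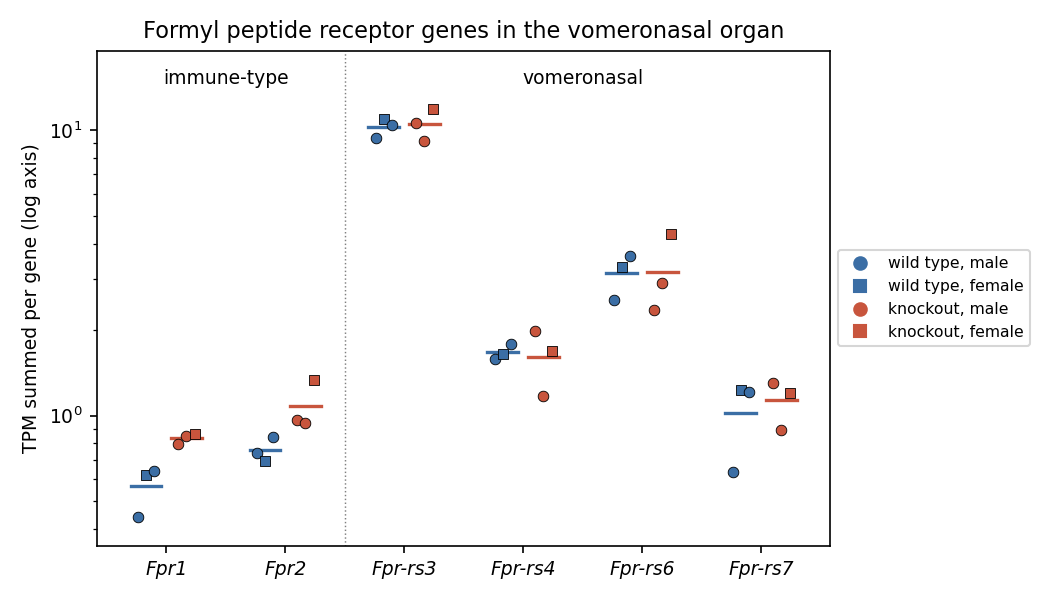
TPM summed per gene (log axis) for each member in each of the 6 mice, with horizontal lines at genotype means, circles for males and squares for females. Fpr-rs3 and Fpr-rs6 lie in separate ranges, and the knockout points of Fpr1 and Fpr2 lie above all wild-type points.

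Among the receptor genes of the organ, the 4 vomeronasal members covered a wide part of the range. The mean wild-type TPM of Fpr-rs3 exceeded that of 168 of 199 protein-coding V1R genes, the receptor class of apical neurons, and of 79 of 120 protein-coding V2R genes, the class of basal neurons. Fpr-rs6, at 3.16 ± 0.561 TPM (SD, n = 3), was close to the median V1R gene (3.12 TPM) and below the median V2R gene (5.68 TPM). Fpr-rs4 exceeded 80 V1R and 20 V2R genes, and Fpr-rs7 67 and 13. The 4 Fpr-rs members are annotated without untranslated parts, and the effect of this on their ranks was not tested. In whole tissue a low level cannot be split into few cells and little RNA per cell, and this holds for each value given here.

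Between genotypes, none of the 4 vomeronasal members was called by edgeR's quasi-likelihood test, where 0.761% of all genes tested were. None had an unadjusted p-value under 0.05 in edgeR, where 10.5% of all genes tested did. DESeq2's Wald test called none either, where it called 0.531% of 17519 genes higher and 1.77% lower in the knockout. Fpr-rs3 had 425, 416 and 473 estimated reads in the wild types and 422, 388 and 487 in the knockouts. Relative to library size this was 6.42, 6.68 and 6.35 CPM against 7.05, 6.65 and 7.25 CPM, with 1 knockout inside the wild-type range. The knockout differed by 0.11 on the log2 scale (SE 0.09; 95% interval -0.09 to 0.30; adjusted p = 0.742 in edgeR). This is the narrowest interval of the 6 genes, and it allows at most a 1.23-fold increase or a decrease to 0.940 of wild type.

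Fpr-rs6 and Fpr-rs7 were read singly and as a pair, since their reads can trade places. Fpr-rs6 stood at 1.71, 1.99 and 2.18 CPM in the wild types and 1.54, 2.09 and 2.60 CPM in the knockouts, differing by 0.09 on the log2 scale (SE 0.22; adjusted p = 0.940 in edgeR). Knockout replicate 1 had the lowest and knockout replicate 3, a female, the highest value of all 6 mice. Fpr-rs7 stood at 0.423, 0.739 and 0.712 CPM in the wild types and 0.852, 0.634 and 0.714 CPM in the knockouts, differing by 0.23 on the log2 scale (SE 0.28; adjusted p = 0.851 in edgeR). Here the order was turned round for knockout replicate 1, which was highest. Summed, the pair had 2.13, 2.73 and 2.89 CPM in the wild types and 2.39, 2.72 and 3.32 CPM in the knockouts, and the groups overlapped.

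Fpr-rs4 had 66, 58 and 75 estimated reads in the wild types and 73, 46 and 64 in the knockouts. It stood at 0.997, 0.932 and 1.01 CPM against 1.22, 0.788 and 0.952 CPM, so the wild types lay within the range of the knockouts. Fpr-rs4 differed by 0.01 on the log2 scale (SE 0.22; 95% interval -0.50 to 0.52; adjusted p = 0.995 in edgeR). The vomeronasal members together had 9.54, 10.3 and 10.2 CPM in the wild types and 10.7, 10.2 and 11.5 CPM in the knockouts, with overlap between genotypes and a log2 ratio of means of 0.10. Their median log2 fold change was 0.10, beside 0.01 for all genes tested. Within that sum Fpr-rs3 held 63.9% ± 2.61 of TPM in wild type and 64.1% ± 1.64 in the knockout (SD over 3 mice each). Interactions of sex and genotype, fitted with 1 female per genotype, had adjusted p-values of 0.960 to 0.999 for the 6 genes in edgeR.

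Both immune-type members had a higher level in every knockout than in any wild type, and neither was called after adjustment by edgeR or DESeq2. Fpr1 had 27, 32 and 39 estimated reads in the wild types and 43, 49 and 48 in the knockouts, or 0.408, 0.514 and 0.524 CPM against 0.719, 0.839 and 0.714 CPM. Fpr1 differed by 0.65 on the log2 scale (SE 0.24; 95% interval 0.11 to 1.19; unadjusted p = 0.0242 and adjusted p = 0.376 in edgeR). Fpr2 had 33, 27 and 36 estimated reads in the wild types and 37, 41 and 52 in the knockouts, or 0.498, 0.434 and 0.483 CPM against 0.618, 0.702 and 0.774 CPM. Fpr2 differed by 0.56 on the log2 scale (SE 0.23; 95% interval 0.03 to 1.10; unadjusted p = 0.0403 and adjusted p = 0.444 in edgeR). DESeq2's Wald test gave unadjusted p-values of 0.0752 for Fpr1 and 0.129 for Fpr2.

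The background for such a pattern is not small. All knockouts lay above all wild types for 7.22% of the genes tested and below them for 8.95%, and an unadjusted p-value under 0.05 in the same direction was found for 4.55%. Among the 548 genes with a mean CPM between that of Fpr2 and 1, 9.49% had all knockouts above all wild types and 0 were called by edgeR. Fpr1 and Fpr2 rest on 27 to 52 reads per library. The sum of Fpr1 and Fpr2 was 0.906, 0.948 and 1.01 CPM in the wild types and 1.34, 1.54 and 1.49 CPM in the knockouts. Their share of the summed TPM of the 6 genes was 7.69%, 7.13% and 7.98% in the wild types and 9.80%, 11.3% and 10.4% in the knockouts.

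**Figure D3:**
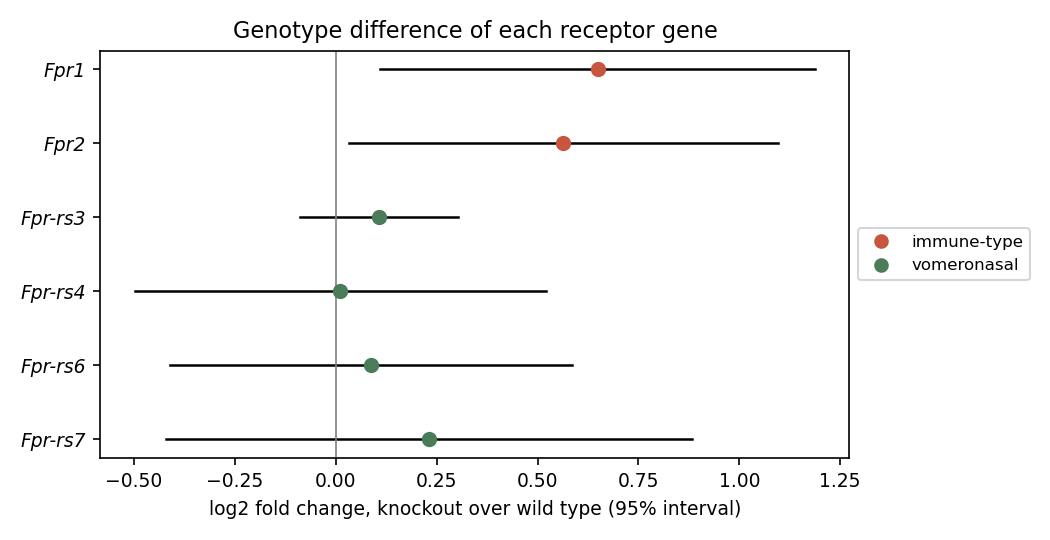
Log2 fold change of knockout over wild type for each member (points) with its 95% interval (lines) from edgeR's quasi-likelihood fit over 16679 genes. The intervals of the 4 vomeronasal members include 0, and those of Fpr1 and Fpr2 lie above it before any adjustment for the number of genes.

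Leukocyte markers were compared because Fpr1 and Fpr2 are known from these cells. Of 12 neutrophil markers, 9 were tested and 0 were called by edgeR, with 7 log2 fold changes above 0, a median of 0.31, and 1 unadjusted p-value under 0.05 (Ltf, higher), where 4.55% of all genes had one and were higher. DESeq2 called 0 of them. The list's summed level was 5515 to 7238 CPM in the wild types and 7349 to 9305 CPM in the knockouts, and nearly all of it was Ltf, encoding the secreted iron-binding protein lactoferrin, which glands also make. Without Ltf, a sum chosen after its value was seen, the ranges overlapped at 104 to 143 CPM and 109 to 149 CPM. Again 1 gene held the largest part of that sum: Mmp9, encoding a secreted gelatinase, had a mean of 67.2 CPM and stood at 71.2 ± 20.01 CPM in wild-type and 63.3 ± 9.02 CPM in knockout mice (SD over 3 mice each), a log2 difference of -0.17. S100a8, S100a9 and Cxcr2, at means of 11.7, 14.7 and 12.6 CPM, differed in the other direction by 0.46, 0.50 and 0.44 (adjusted p = 0.560, 0.508 and 0.566 in edgeR). Ngp, a neutrophil granule gene, had the largest difference of the list and a negative one, at -1.74 on the log2 scale (adjusted p = 0.596 in edgeR), with overlapping ranges of 0.269 to 1.91 CPM in the wild types and 0.0514 to 0.585 CPM in the knockouts. S100a8, encoding a subunit of calprotectin, stood at 9.36 to 10.4 CPM in the wild types and 8.09 to 16.9 CPM in the knockouts. Ly6g, Elane and Mpo, which mark neutrophils and their precursors, stayed at a mean of at most 0.0505 CPM and were not tested, and no marker was at 0 in all libraries. Ly6g ranged from 0.0134 to 0.0321 CPM in the wild types and from 0.0343 to 0.0893 CPM in the knockouts, without overlap but near 0. Elane and Mpo overlapped between genotypes.

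Of 14 monocyte and macrophage markers, all were tested and all 14 had a log2 fold change above 0, with a median of 0.18. By edgeR 0 were called and 6 had an unadjusted p-value under 0.05 with a higher level, where 4.55% of all genes tested did. DESeq2 called 3 higher, Lyz2, Ccr2 and Itgam, where it called 0.531% of 17519 genes higher and 1.77% lower. Their summed level was 455 to 505 CPM in the wild types and 560 to 679 CPM in the knockouts, without overlap. Lyz2, encoding lysozyme, had the largest share, with 124 ± 15.8 CPM in wild-type and 209 ± 38.6 CPM in knockout mice (SD over 3 mice each), a log2 difference of 0.75 (adjusted p = 0.0646 in edgeR). Without Lyz2, again chosen after the values were seen, the sums were 347 to 380 CPM and 382 to 427 CPM. Itgam, the integrin subunit CD11b of myeloid cells, stood at 11.1 ± 0.949 and 15.4 ± 1.28 CPM (SD over 3 mice each), a log2 difference of 0.47 (adjusted p = 0.0830 in edgeR). The pan-leukocyte gene Ptprc stood at 16.7 to 17.5 CPM in the wild types and 17.7 to 22.9 CPM in the knockouts. The summed monocyte and macrophage level was higher in every knockout than in every wild type, as was the sum of Fpr1 and Fpr2. Among knockouts replicate 1 had the highest marker sum (679 CPM) and the lowest sum of Fpr1 and Fpr2 (1.34 CPM). Among wild types replicate 3 had the lowest marker sum (455 CPM) and the highest of these 2 genes (1.01 CPM). The sum of Fpr1 and Fpr2 held 59 to 75 estimated reads in the wild types and 80 to 100 in the knockouts. The order of mice within a genotype thus rests on few reads. The part of these markers in the values of Fpr1 and Fpr2 was not tested.

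**Figure D4:**
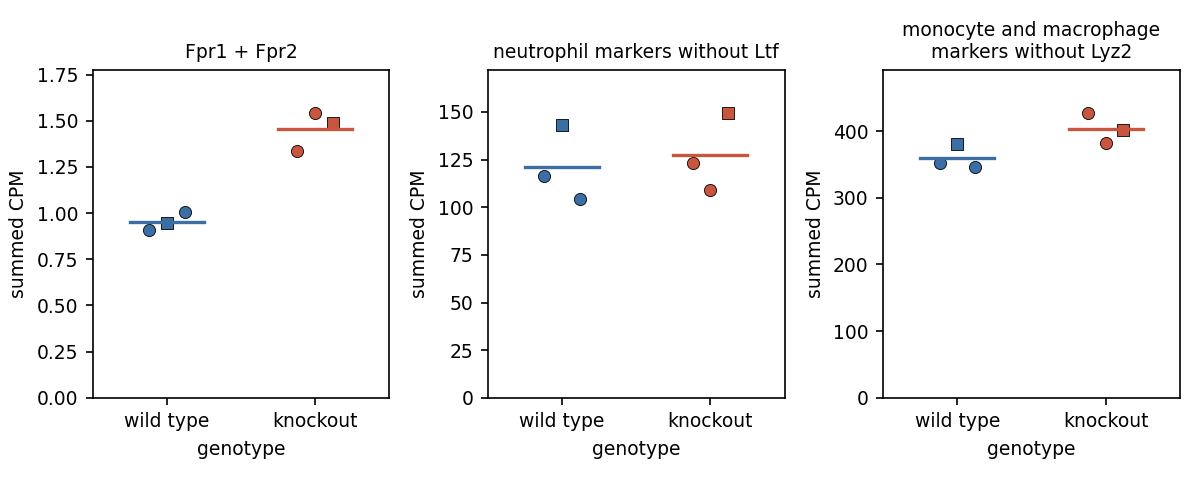
Summed CPM per mouse of Fpr1 and Fpr2, of 11 neutrophil markers without Ltf, and of 13 monocyte and macrophage markers without Lyz2, with lines at genotype means, circles for males and squares for females. The genotypes do not overlap in the first and last panels and overlap in the middle one.

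Genes for known ligands and for signalling below the receptors were described from lists. Of 8 ligand genes, 4 were tested, 0 were called by edgeR or DESeq2 and 1 had an unadjusted p-value under 0.05, against 10.5% of all genes in either direction, with a median log2 fold change of -0.02. Anxa1, encoding annexin A1, whose peptides act on these receptors, was that gene, at 235 ± 11.8 CPM in wild-type and 265 ± 17.8 CPM in knockout mice (SD over 3 mice each; adjusted p = 0.438 in edgeR). App, the amyloid precursor gene, was the most abundant of the list at a mean of 1358 CPM and differed by -0.01 on the log2 scale. Camp, Saa1, Saa2 and Saa3, which encode cathelicidin and serum amyloid A proteins, did not pass the filter on low counts and were not tested. Saa3 had a mean of 0.622 CPM, but most of it came from 1 knockout library. It ranged from 0.0171 to 3.29 CPM among the knockouts, and from 0.0134 to 0.0643 CPM among the wild types.

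Of 17 genes that carry receptor signals in leukocytes, all were tested and 0 were called by edgeR, while 4 had an unadjusted p-value under 0.05 and a higher level and 3 a lower one, against 4.55% and 5.99% of all genes tested. Their median log2 fold change was 0.10, with 12 above 0, and DESeq2 called Pik3r5 higher, where it called 0.531% of all genes higher. Pik3r5, a regulatory subunit of the phosphoinositide kinase that chemoattractant receptors activate, stood at 3.68 ± 0.119 CPM in wild-type and 5.51 ± 0.820 CPM in knockout mice (SD over 3 mice each), a log2 difference of 0.58 (adjusted p = 0.131 in edgeR). Ncf1, a subunit of the phagocyte oxidase, stood at 8.91 ± 0.409 and 11.2 ± 1.19 CPM (SD over 3 mice each; adjusted p = 0.268 in edgeR). The 3 lower genes were Gnb1, a G protein beta subunit (-0.22 on the log2 scale), Plcb2, a phospholipase (-0.35), and Arrb2, an arrestin (-0.28), with adjusted p-values of 0.353, 0.276 and 0.407 in edgeR. Gnb1, Plcb2 and Gnai2 are also members of the vomeronasal transduction list, so these lists share 3 genes. Of 11 vomeronasal transduction genes, edgeR called Gnao1 lower and 0 higher, with a median of -0.22 and 5 of 11 log2 fold changes above 0, and DESeq2 called 4 lower (Gnao1, Gng8, Trpc2 and Ano2) and 0 higher. Of all genes, edgeR called 0.683% and DESeq2 1.77% lower. At an unadjusted p-value under 0.05 edgeR had 6 lower and 2 higher, against 5.99% and 4.55% of all genes, the latter 2 being Gnai2 and Itpr3, an intracellular calcium channel gene at 48.8 ± 5.69 and 59.4 ± 8.43 CPM (SD over 3 mice each; adjusted p = 0.440 in edgeR). Trpc2, the channel of vomeronasal transduction, stood at 312 ± 28.0 and 250 ± 17.2 CPM (SD over 3 mice each; adjusted p = 0.197 in edgeR).

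Markers of the apical neurons, which carry the 4 vomeronasal members, were set beside those of basal neurons. For the 7 apical markers the median log2 difference was 0.09, 0 were called by edgeR or DESeq2 and 1 had an unadjusted p-value under 0.05 (Gnai2, higher), against 4.55% of all genes. They summed to 1433 to 1480 CPM in the wild types and 1543 to 1628 CPM in the knockouts. Gnai2, the G protein subunit gene of apical neurons, stood at 644 ± 33.0 and 726 ± 27.4 CPM (SD over 3 mice each), a log2 difference of 0.17 (adjusted p = 0.377 in edgeR). The 7 markers of basal neurons, which carry V2R receptors, had a median of -0.21, with Gnao1 called lower by edgeR, Gnao1 and Gng8 by DESeq2 and 0 higher by either, against 0.683% (edgeR) and 1.77% (DESeq2) of all genes called lower. They summed to 1036 to 1096 CPM in the wild types and 886 to 920 CPM in the knockouts. Gnao1, the G protein subunit gene of basal neurons, went from 310 ± 8.48 to 234 ± 8.09 CPM (SD over 3 mice each), a log2 difference of -0.41 (SE 0.05; adjusted p = 0.0143 in edgeR). Without any one of the 3 wild types, knockout replicate 1 or knockout replicate 2, Gnao1 stood at -0.38 to -0.43 and was no longer called, with adjusted p-values of 0.0575 to 0.0854. Of 6 genes of mature neurons, edgeR called Stom lower (-0.36 on the log2 scale, adjusted p = 0.0356), against 0.683% of all genes, and the list's median was -0.19. DESeq2 called 3 lower, Omp, Trpc2 and Stom, against 1.77% of all genes. Without any 1 of the 6 libraries Stom stood at -0.34 to -0.39 and was no longer called by edgeR, with adjusted p-values of 0.0698 to 0.202. The call of Stom was also lost with the replicate block (adjusted p = 0.0573), and those of Stom and Gnao1 in males only (0.209 and 0.146), without scaling factors (0.133 and 0.0691) and with limma on log2(TPM + 0.1) (0.427 and 0.257). Where these calls were lost, Stom stood at -0.36 to -0.44 and Gnao1 at -0.43 to -0.49 on the log2 scale. No marker of these 3 lists was at 0, and the part of the marker shifts in the values of the vomeronasal members was not tested.

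Fpr2 is annotated with a pair of transcripts, ENSMUST00000064068.4 of 2 exons and ENSMUST00000149944.1 of 3 exons, whose exons overlap. The 3-exon transcript held 36.1%, 26.3% and 51.3% of the Fpr2 reads in the wild types and 44.7%, 26.8% and 50.2% in the knockouts, with overlap between genotypes. The means were 37.9% ± 12.6 and 40.6% ± 12.2 (SD over 3 mice each; exact two-sided permutation p = 0.9, where 0.1 is the smallest possible). With 7.1 to 26.1 estimated reads per library for that transcript, the split rests on few reads.

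The Fpr genes sit among V2R genes, which allows their values to be set beside those of genes in the same stretch of chromosome 17. Between Fpr1 and Fpr-rs3, 23 protein-coding genes outside the family are annotated, 21 of them V2R and 2 V1R, and all were tested. Of the 21 V2R genes, 8 were called lower and 0 higher by edgeR, against 0.683% of all genes called lower, with a median log2 fold change of -0.48. The 8 were Vmn2r94 (-0.91), Vmn2r93 (-1.38), Vmn2r97 (-2.44), Vmn2r104 (-0.64), Vmn2r106 (-2.41), Vmn2r107 (-1.39), Vmn2r108 (-2.38) and Vmn2r110 (-2.09). The nearest called genes to Fpr-rs6 in this interval were Vmn2r104 and Vmn2r106. Vmn2r90, 1 of 16 further genes within 500 kb, was also called lower at -1.97. Without knockout replicate 1 or 2, 6 of the 21 were called lower, and DESeq2 called 9 lower and 1 higher, against 1.77% and 0.531% of all genes. Of 10 V1R genes in or near the interval, 0 were called by edgeR or DESeq2 and 2 had an unadjusted p-value under 0.05, against 10.5% of all genes in either direction, with a median of 0.09. That count of 2 was 0 without knockout replicate 3 or wild-type replicate 2 and 3 without knockout replicate 2 or wild-type replicate 3. None of the 6 Fpr genes was called in the same fit, and no test of the difference between Fpr and V2R genes was made. Their levels differed, since each of the 8 called V2R genes had a mean above 1 CPM. Fpr1, Fpr2, Fpr-rs4 and Fpr-rs7 had means below 1 CPM. Among the 548 genes with a mean CPM between that of Fpr2 and 1, edgeR called 0. Fpr-rs3 and Fpr-rs6 had means above 1 CPM, and uncalled V2R genes lay on both sides of it. The part of level in the missing calls was not tested.

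**Figure D5:**
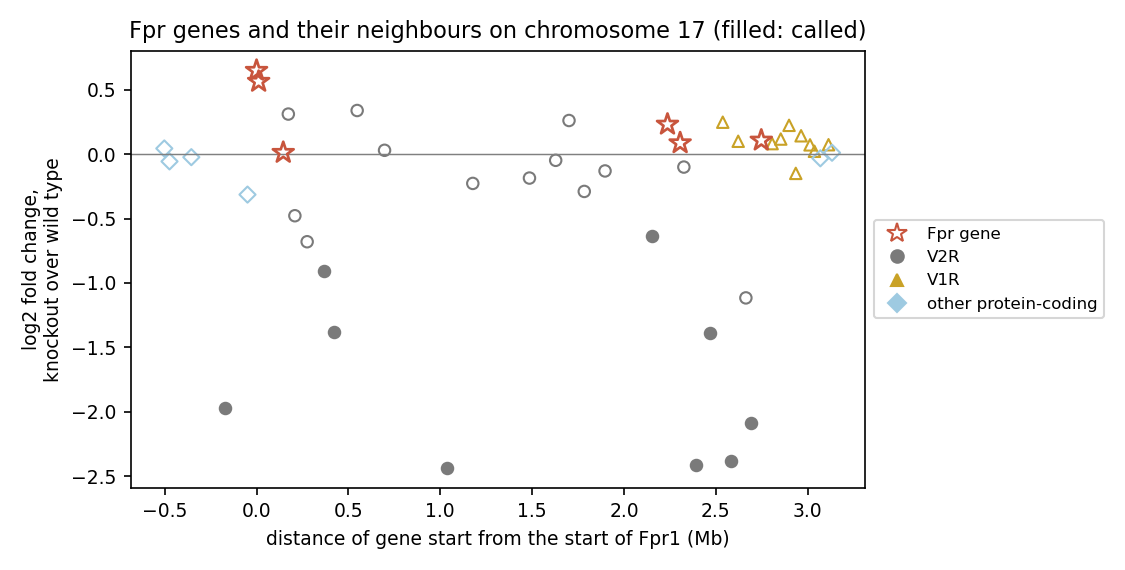
Log2 fold change of knockout over wild type against the distance of each gene's start from the start of Fpr1 (Mb) on chromosome 17, for the 6 Fpr genes (stars) and the tested protein-coding genes between or within 500 kb of them. Filled symbols were called by edgeR, and 9 V2R genes were, all of them lower, while the Fpr stars lie between 0.01 and 0.65.

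The genes whose pattern over the 6 libraries was most like that of the family were listed by Pearson correlation of log2(CPM + 1) among the 12385 protein-coding genes averaging 5 CPM or more. For the summed vomeronasal members these were Art4 (r = 0.999), Aqp3 (0.998), Gpsm2 (0.998), Esd (0.993) and Ddx10 (0.989). For the sum of Fpr1 and Fpr2 they were Eif3j2 (r = 0.996), Vmn2r33 (0.993), Vmn2r32 (0.992), Rai1 (0.992) and Vmn2r95 (0.979). Vmn2r33 and Vmn2r32 were themselves called between genotypes (adjusted p = 0.0123 and 0.0101 in edgeR). These coefficients rest on 6 libraries that share their depth and genotype with both measures, and are given as a description.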

How the data were processed

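Each of the 6 tables deposited by the authors lists every transcript with Salmon's estimated count and its TPM, per the file headers. Trim Galore 0.6.6 and Salmon 1.9.0, with builds mm10 and GRCm38, and DESeq2 are named in the submitters' processing notes, and the transcript annotation is not given in the sources used here. Of 117081 transcripts, 115942 matched GENCODE M21 (GRCm38) by identifier, and the 1139 others held 0.277% to 0.355% of reads and were left out. Estimated counts were summed per gene and rounded for edgeR 4.0.16 in R 4.3.3 (TMM, filterByExpr, quasi-likelihood F test, genotype as the only term, Benjamini-Hochberg adjustment, threshold 0.05). The main design had been written for rounded estimated counts. Standard errors are the log2 fold change divided by the square root of F, and 95% intervals use the fit's degrees of freedom. The authors' deposited TPM values were summed per gene for levels. Alternatives included DESeq2 1.42.0 and limma 3.58.1, the latter also on log2(TPM + 0.1). Fits were tested on simulated data. Sequences were compared with Biopython 1.88 in Python 3.11.15.

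Groups, replicate numbers and sexes come from the labels, and each library is 1 mouse. The members, lists and tests were chosen with earlier results of these data known. One listed receptor gene is not reported here, and sums and shares leave it out. Named genes are the members, Cnpy1, Fpr-rs5, called or abundant list genes, neighbours within 500 kb, and the 5 most alike genes. Genes named beyond this rule (S100a8, Ly6g, Elane, Mpo, Itgam, Ccr2, Ptprc, Gng8, Ano2, Itpr3, Mmp9, Ngp, S100a9, Cxcr2, Gnb1, Plcb2, Arrb2, Camp, Saa1, Saa2, Saa3, Pik3r5, Ncf1, Trpc2 and Gm5966) and the transcript split were chosen after values were seen.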

Additional observations from a re-analysis of the deposited data

How the results depend on the processing

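Over 18 alternatives fitted across all genes, no member was called, and adjusted p-values ranged from 0.348 to 0.783 for Fpr1 and from 0.419 to 0.865 for Fpr2. Fpr1 (log2 fold change 0.23 to 0.74), Fpr2 (0.24 to 0.64), Fpr-rs3 (0.03 to 0.14) and Fpr-rs7 (0.02 to 0.38) stayed above 0 in these 18. The lowest values of Fpr1 and Fpr2 came with limma on log2(TPM + 1), where the added 1 exceeds most of their levels. Fpr-rs4 reversed without scaling factors (-0.0180), with limma-voom (-0.0105), and with limma on log2(TPM + 0.1) (-0.0778) or log2(TPM + 1) (-0.0445), and leaving out 1 library gave -0.17 to 0.15. Fpr-rs6 reversed in males only (-0.10) and with limma on log2(TPM + 0.1) (-0.0125) or log2(TPM + 1) (-0.0051), and leaving out 1 library gave -0.11 to 0.26. Every one of these reversed values lies within the gene's 95% interval, and the cause was not tested. The fits to males and those leaving out 1 library rest on fewer mice. The log2 ratio of summed levels ranged from 0.54 to 0.67 for the immune-type and from 0.03 to 0.14 for the vomeronasal members over 10 alternatives. Both lowest values came with summed TPM, and with summed CPM the lowest were 0.57 and 0.05. Genes called numbered 403 with DESeq2, 76 in males only, 80 and 72 with limma on log2(TPM + 0.1) and log2(TPM + 1), and 69 to 96 leaving out 1 library, against 127.

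The replicate numbers were not taken as pairs, since same-numbered libraries correlated at 0.15, -0.09 and 0.23 in their deviations from the group means, and wild-type replicate 1 correlated best with knockout replicate 2 (0.17). With the replicate block 154 genes were called, Fpr1 and Fpr2 stood at 0.65 and 0.56, Fpr-rs3 at 0.11, Fpr-rs6 at 0.06 and Fpr-rs7 at 0.25, and Fpr-rs4 reversed to -0.0055.

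Fpr1 and Fpr2 rest on 27 to 52 reads per library, and the part of depth in their missing calls was not tested.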
